A study of Mus musculus with 3 samples.

Results

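The cells described here were regulatory T cells (Tregs) of subcutaneous tumors, divided by whether a transcript of *Klrg1* was read in the cell. Of 34781 cell barcodes in 3 single-cell RNA-seq libraries, 31943 had 1000 to 6000 genes and less than 7.5% mitochondrial UMIs (unique molecular identifiers, each standing for 1 captured transcript). Among these, 1185 cells met the rule for Tregs, which was at least 2 UMIs of *Cd3e*, at least 1 of *Foxp3*, none of *Cd8b1* or *Ncr1* and no more than 3 of *Mki67* and *Top2a* together. A total of 658 Tregs held at least 1 UMI of *Klrg1* (Klrg1+ Tregs) and 527 held none (Klrg1- Tregs). The groups were thus chosen by a measured transcript, and *Klrg1*, *Foxp3* and the other genes of the rule are described without a test.

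All 3 libraries came from wild-type C57BL/6 Kaede mice, whose cells carry Kaede, a fluorescent protein converted by violet light from a green to a red form. The mice received 250000 MC38-Ova colon carcinoma cells (named MC38 in the study's text) under the skin and an isotype control antibody, tumors were photoconverted on day 13, and cells were taken on day 15, 48 h later. Live CD45+ TER119- Kaede+ cells were sorted and CD11b+ NK1.1- myeloid cells were gated out. Kaede-green cells, which had entered after photoconversion, made up 2 libraries (called Kaede-green 1 and 2), and Kaede-red cells, which were already in the tumor, made up 1 (Kaede-red), so colors were not tested against each other.

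Tregs are CD4+ T cells that restrain other lymphocytes and whose identity rests on the transcription factor *Foxp3*. They act through inhibitory receptors, cytokines, adenosine made by surface enzymes and cytotoxic granules. *Klrg1* (chr6:122270596-122282882 in GRCm38) encodes an inhibitory lectin-like receptor that binds cadherins and is known from late effector CD8 T cells, NK cells and activated Tregs of tissues and tumors.

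Values of the libraries are given below in the order Kaede-green 1, Kaede-green 2, Kaede-red. Tregs numbered 268, 419 and 498, and no Treg barcode was found in more than 1 library. The 6 sums of UMIs that were compared held between 1122539 and 2447140 UMIs. Klrg1+ Tregs were deeper than Klrg1- Tregs in each library, with medians of 8675, 8741.5 and 6913 UMIs per cell against 7252, 7576 and 5608, so that the comparison was repeated with every cell thinned to 3000 UMIs. Of the marker genes of Tregs, *Il2ra*, *Ikzf2*, *Ctla4*, *Tnfrsf18* and *Tnfrsf4* averaged higher in both groups than in Foxp3-negative, Klrg1- CD4 T cells. *Il2ra*, the high-affinity IL-2 receptor chain, averaged 699 CPM (UMIs of a gene as a share of all UMIs of the sum, on the scale of counts-per-million) in Klrg1+ Tregs and 604 CPM in Klrg1- Tregs, against 93.7 CPM in those CD4 T cells and 69.0 CPM in Klrg1- CD8 T cells. *Cd4* itself averaged 154 and 133 CPM in Klrg1+ and Klrg1- Tregs and 5.65 CPM in Klrg1- CD8 T cells. Foxp3-negative, Klrg1- CD4 T cells, which were chosen for a *Cd4* UMI, were higher at 316 CPM. *Nrp1*, another gene of Treg identity, was also lower in Tregs. It averaged 8.61 and 27.9 CPM in Klrg1+ and Klrg1- Tregs against 58.4 CPM in those CD4 T cells.

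*Klrg1* was read in a large share of Tregs in every library. Klrg1+ cells made up 48.9% of Tregs in the first library (exact 95% interval 42.8 to 55.0%), 53.5% in the second (48.6 to 58.3%) and 60.8% among Kaede-red cells (56.4 to 65.2%). The interval of Kaede-red overlapped that of Kaede-green 2 and did not overlap that of Kaede-green 1. After thinning to 3000 UMIs the shares were 34.2%, 39.8% and 45.0%, in the same order. Intervals cover counting error only. In B cells, which do not make KLRG1, 0 of 210, 1 of 110 and 0 of 8 cells held a UMI, at median depths of 4051.5, 4967.5 and 5036 UMIs against 7474, 8312 and 6508 in Tregs. A count of 0 in the 210 B cells of Kaede-green 1 allows a share of up to 1.43% if 3 counts are taken as the limit, and the exact 95% upper limit is 1.74%. The share was 3.55%, 5.89% and 3.14% in CD8 T cells and 9.43%, 8.97% and 13.7% in NK cells. Foxp3-negative CD4 T cells were at 7.46%, 14.1% and 26.4%, below NK cells in Kaede-green 1 and above them in the other libraries. These shares were not matched for depth. In Kaede-red the medians were 16691 UMIs in NK cells and 5534.5 in Foxp3-negative CD4 T cells.

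**Figure D1:**
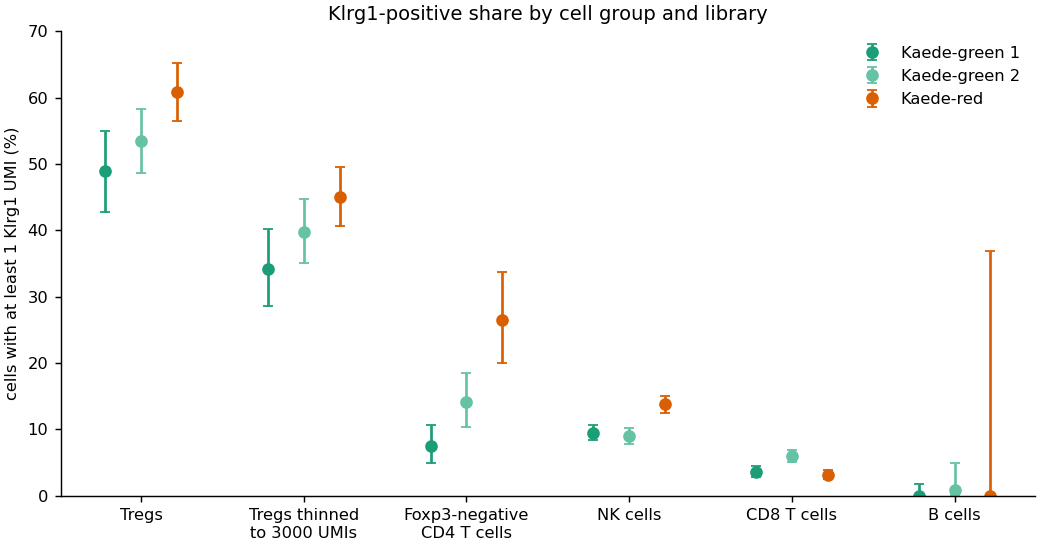
Percent of cells with at least 1 *Klrg1* UMI (y axis) by cell group (x axis) in the 3 libraries, with exact 95% intervals as bars. Tregs lie between 48.9% and 60.8%, or 34.2% and 45.0% after thinning to 3000 UMIs, and B cells at or near 0.

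Within Klrg1+ Tregs, 40, 40 and 92 cells of the 3 libraries held exactly 1 UMI of *Klrg1*, just inside the rule, and 91, 184 and 211 held 2 or more, up to 31. *Klrg1* summed to 399, 498 and 542 CPM in Klrg1+ Tregs. *Foxp3* was at 373, 387 and 443 CPM in Klrg1+ Tregs and 466, 369 and 443 CPM in Klrg1- Tregs, ranges that overlapped. *Cd3e*, a chain of the T cell receptor complex, was at 559 to 686 CPM and 639 to 735 CPM. *Mki67*, the proliferation marker, was at 14.3 to 16.4 CPM and 11.5 to 12.5 CPM.

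For the genes outside the rule, sums of Klrg1+ and Klrg1- Tregs were compared by edgeR's quasi-likelihood test with the library as a block, and p-values were adjusted by Benjamini-Hochberg over all 8245 genes tested. In Klrg1+ Tregs, 123 genes were higher (1.49% of the genes tested) and 121 lower (1.47%), and 242 of these 244 had the same direction in all 3 libraries. The median log2 fold of all genes was -0.0067. Without the library block, 1 gene was higher and 3 were lower (0.0121% and 0.0364%). With cells thinned to 3000 UMIs and the groups kept, 71 were higher and 59 lower (1.23% and 1.02%), and with the groups also called anew on the thinned UMIs, 39 and 37 (0.667% and 0.633%). Where Tregs had to hold 2 or more *Foxp3* UMIs, 13 were higher and 13 lower (0.169% and 0.169%).

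The products through which Tregs act were unevenly higher in Klrg1+ Tregs. Of 15 suppressive effector genes tested, 6 were higher, 1 was lower and 8 did not pass, with a median log2 fold of 0.31. With 2 *Foxp3* UMIs, 1 was higher and 1 lower, and after thinning with groups called anew 4 were higher and none lower, with *Ebi3*, *Ctla4* and *Nt5e* no longer passing. *Gzmb*, the cytotoxic granule protease granzyme B, was at 4053, 3553 and 4723 CPM in Klrg1+ Tregs against 2000, 2048 and 3555 CPM in Klrg1- Tregs. It was higher in each library, although Klrg1- Tregs of Kaede-red reached the level of Klrg1+ Tregs of Kaede-green 2. Its log2 fold was 0.74 ± 0.08 (SE, 3 libraries in each group, adjusted p = 0.000423).

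*Areg*, the growth factor amphiregulin that Tregs of injured tissue secrete, was at 773, 771 and 722 CPM in Klrg1+ Tregs and 279, 513 and 621 CPM in Klrg1- Tregs. The groups did not overlap, as was the case for 14.7% of all genes tested. The log2 fold of *Areg* was 0.73 ± 0.16 (SE, adjusted p = 0.0249), and 0.41 without Kaede-green 1. *Areg* did not pass with 2 *Foxp3* UMIs (adjusted p = 0.376), with DESeq2 (0.357) or with cycling cells kept (0.0518). *Entpd1*, the ectoenzyme CD39 that starts the breakdown of extracellular ATP, was at 131, 146 and 166 CPM against 67.7, 83.6 and 131 CPM. The log2 fold of *Entpd1* was 0.67 ± 0.12 (SE, adjusted p = 0.0112). *Nt5e*, the ectoenzyme CD73 that completes the step to adenosine, went the other way. It was at 80.7, 83.5 and 87.9 CPM in Klrg1+ Tregs and 143, 114 and 148 CPM in Klrg1- Tregs, without overlap, and fell by 0.67 ± 0.11 on the log2 scale (SE, adjusted p = 0.00692). The pair of enzymes that act in sequence on extracellular ATP thus changed in opposite directions.

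*Lgals1*, the suppressive lectin galectin-1, was higher by a log2 fold of 0.55 (adjusted p = 0.00383). *Ebi3*, a subunit of IL-35 and IL-27, was higher by a log2 fold of 0.59 (adjusted p = 0.0307), and *Ctla4*, the inhibitory receptor that takes CD80 and CD86 from other cells, by 0.28 (adjusted p = 0.0418). *Ctla4* did not pass among Tregs without a UMI of *Cd8a*, *Klrb1c*, *Cd79a*, *Lyz2*, *C1qa* or *Trdc* (adjusted p = 0.12), called the strict gate below. *Il10*, the suppressive cytokine, was at 103, 122 and 160 CPM in Klrg1+ Tregs and 108, 87.3 and 152 CPM in Klrg1- Tregs. These ranges overlapped and the log2 fold of 0.18 ± 0.12 did not pass (SE, adjusted p = 0.51).

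**Figure D2:**
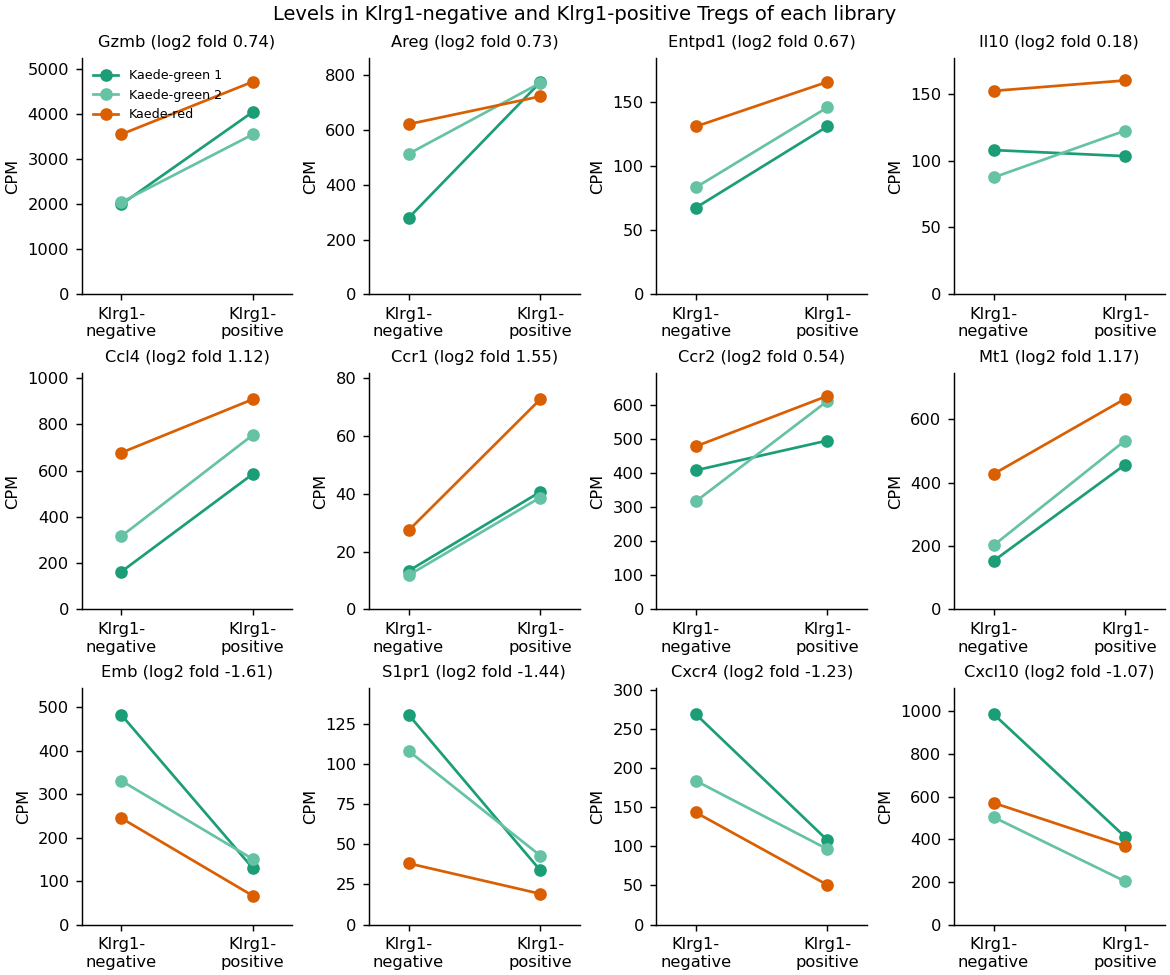
CPM (y axis, from 0) of 12 genes in Klrg1- and Klrg1+ Tregs (x axis), with 1 line for each library and the log2 fold of the fit in the title. Lines of *Gzmb*, *Areg*, *Entpd1*, *Ccl4*, *Ccr1*, *Ccr2* and *Mt1* go up in all 3 libraries and those of *Emb*, *S1pr1*, *Cxcr4* and *Cxcl10* go down, whereas those of *Il10* do not share a direction.

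Most genes of effector and tissue Tregs did not pass the test, where 1.49% of all genes tested were higher and 1.47% lower. Of 23 tested, 3 were higher and none was lower, with a median log2 fold of 0.11. Those were *Areg*, the transcription factor *Maf* (log2 fold 0.42, adjusted p = 0.0112) and the costimulatory receptor *Icos* (0.36, adjusted p = 0.0123). *Il1rl1*, the IL-33 receptor ST2, had a log2 fold of 0.13 (adjusted p = 0.829), *Gata3*, a transcription factor of tissue Tregs, -0.08 (adjusted p = 0.801), and *Prdm1*, which encodes Blimp-1, 0.14 (adjusted p = 0.713). *Ccr8*, the chemokine receptor of tumor Tregs, was at 30.9, 21.5 and 30.2 CPM in Klrg1+ Tregs and 33.9, 24.8 and 22.3 CPM in Klrg1- Tregs (log2 fold 0.04, adjusted p = 0.959). *Itgae*, the integrin chain CD103, had a log2 fold of 0.11 (adjusted p = 0.709).

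Of 13 genes of Treg identity tested, 2 were higher, 1 was lower and 10 did not pass. The higher members were *Ctla4* and *Tnfrsf4*, which encodes the costimulatory receptor OX40, with a log2 fold of 0.23 (adjusted p = 0.0239), and neither passed under the strict gate. *Ikzf2*, the transcription factor Helios, missed the threshold with a log2 fold of 0.21 (adjusted p = 0.051), as did *Il2ra* with 0.23 (adjusted p = 0.161). *Nrp1*, the semaphorin receptor neuropilin-1 that marks many thymus-derived Tregs, was low in both groups. Its level was 10.6, 11.2 and 4.09 CPM in Klrg1+ Tregs against 32.1, 28.6 and 23.0 CPM in Klrg1- Tregs, without overlap. *Nrp1* fell by 1.72 ± 0.26 on the log2 scale (SE, adjusted p = 0.0035).

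Of 16 genes of resting and recirculating Tregs tested, 6 were lower in Klrg1+ Tregs, 1 was higher and 9 did not pass, and the median log2 fold was -0.60. With 2 *Foxp3* UMIs, *S1pr1* was the 1 member still called lower, and after thinning with groups called anew 4 of 14 were lower and 1 was higher. *S1pr1*, the sphingosine-1-phosphate receptor with which lymphocytes leave tissues and lymph nodes, was at 33.9, 43.1 and 19.2 CPM in Klrg1+ Tregs and 131, 108 and 38.2 CPM in Klrg1- Tregs. It was lower in Klrg1+ Tregs of each library, and Klrg1- Tregs of Kaede-red lay within the range of the Klrg1+ sums. It fell by 1.44 ± 0.17 on the log2 scale (SE, adjusted p = 0.000622).

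*Lef1*, a transcription factor of naive T cells, was at 18.1, 18.9 and 15.9 CPM against 35.6, 30.7 and 30.3 CPM (log2 fold -0.85, adjusted p = 0.0308). Also lower were the transcriptional regulators *Id3* (log2 fold -1.22, adjusted p = 0.0469) and *Klf3* (-1.19, adjusted p = 0.0149) and the survival gene *Bcl2* (-1.15, adjusted p = 0.00185). *Klf2*, the activator of *S1pr1*, had a log2 fold of -0.69 (adjusted p = 0.0018) and was named after its value was seen. *Lef1* and *Bcl2* did not pass under the strict gate (adjusted p = 0.056 and 0.13). *Tcf7*, the partner of *Lef1*, did not pass (log2 fold -1.38, adjusted p = 0.0644), and its level in Klrg1- Tregs was 47.4 CPM in Kaede-green 2 against 10.7 and 13.0 CPM in the other libraries. The gene of this list that was higher was *Il7r*, the IL-7 receptor chain, with 277, 255 and 450 CPM in Klrg1+ Tregs and 157, 210 and 337 CPM in Klrg1- Tregs (log2 fold 0.49 ± 0.10, SE, adjusted p = 0.0192).

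*Emb*, which encodes the glycoprotein embigin, was among the genes that separated the groups in each library. *Emb* was at 130, 151 and 66.2 CPM in Klrg1+ Tregs against 483, 331 and 245 CPM in Klrg1- Tregs. The groups did not overlap, and it fell by 1.61 ± 0.13 on the log2 scale (SE, adjusted p = 6.6e-05). *Cd69*, an early activation marker that also retains cells in tissue by opposing *S1pr1*, was lower by 0.71 (log2 fold -0.71, adjusted p = 0.00329), as was the integrin chain *Itgb1* (log2 fold -0.58, adjusted p = 0.0434). Of 19 integrin and adhesion genes tested, those 2 and *S1pr1* were lower and none was higher.

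Chemokine receptors split in both directions. Of 12 tested, 4 were higher and 3 lower, with a median log2 fold of -0.06. *Ccr1*, a receptor for CCL3 and related inflammatory chemokines, was at 40.7, 38.8 and 72.7 CPM in Klrg1+ Tregs and 13.4, 11.9 and 27.4 CPM in Klrg1- Tregs. No Klrg1- sum reached a Klrg1+ sum, and the log2 fold was 1.55 ± 0.17 (SE, adjusted p = 0.000423). *Ccr2*, the receptor for CCL2, had a log2 fold of 0.54 (adjusted p = 0.0149). Both genes lie on chromosome 9, *Ccr1* at chr9:123962124-123968692 and *Ccr2* at chr9:124101950-124113557. *Cx3cr1*, the fractalkine receptor, rested on few UMIs, 117 in all Klrg1+ Tregs and 28 in all Klrg1- Tregs (ratio 2.99, exact 95% interval 1.97 to 4.70). Exact intervals of UMI ratios, here and below, pool the libraries and treat UMIs as independent. In Klrg1+ Tregs of Kaede-green 2, 44.4% of the *Cx3cr1* UMIs came from 1 cell. Its log2 ratio was 2.93, 2.20 and 0.43 in the libraries.

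*Cxcr4*, the receptor for CXCL12 that holds cells in bone marrow and stroma, was at 108, 96.5 and 50.7 CPM in Klrg1+ Tregs against 269, 184 and 143 CPM in Klrg1- Tregs. It did not overlap between the groups and fell by 1.23 ± 0.12 on the log2 scale (SE, adjusted p = 0.000179). *Ccr4*, a skin and tumor homing receptor, had a log2 fold of -1.45 (adjusted p = 0.0068), and *Ccr6*, a receptor of mucosal and IL-17-producing T cells, -2.27 (adjusted p = 0.00814), at 19 UMIs in all Klrg1+ Tregs against 70.

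Among secreted cytokines and chemokines, 4 of 17 tested were higher and 2 lower, with a median log2 fold of -0.08. *Ccl4*, the chemokine MIP-1β, was at 586, 755 and 909 CPM in Klrg1+ Tregs and 163, 316 and 678 CPM in Klrg1- Tregs, with a log2 fold of 1.12 ± 0.17 (SE, adjusted p = 0.0035). *Ccl3*, the chemokine MIP-1α, was at 36.2, 77.1 and 172 CPM against 14.3, 43.7 and 66.3 CPM (log2 fold 1.16, adjusted p = 0.00173). Both were higher in each library, and their ranges overlapped between libraries. Single cells weighed on these sums, with 44.4% of the *Ccl4* UMIs and 45.8% of the *Ccl3* UMIs of Klrg1+ Tregs in Kaede-green 1 coming from 1 cell. *Ccl9*, another chemokine of this family, had 193 UMIs in Klrg1+ Tregs and 4 in Klrg1- Tregs (ratio 34.6, exact 95% interval 13.3 to 128). In Klrg1+ Tregs of the 3 libraries, 87.0%, 82.6% and 43.5% of its UMIs were those of 1 cell, so this difference rested on very few cells. *Csf1*, the macrophage growth factor, had a log2 fold of 0.91 (adjusted p = 0.0418).

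Going the other way, *Cxcl10*, an interferon-induced ligand of CXCR3, was at 412, 203 and 367 CPM in Klrg1+ Tregs and 988, 504 and 571 CPM in Klrg1- Tregs. It did not overlap and fell by 1.07 ± 0.11 on the log2 scale (SE, adjusted p = 0.000266). *Xcl1*, a chemokine of cytotoxic lymphocytes that calls in dendritic cells, was at 43.0, 77.1 and 49.9 CPM against 73.0, 418 and 341 CPM (log2 fold -2.23, adjusted p = 0.000266), with 49.9% of its Klrg1- UMIs in Kaede-green 2 and 43.9% in Kaede-red from 1 cell.

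Markers of myeloid cells, which also make several of these chemokines, summed over 10 genes to 2510, 711 and 1266 CPM in Klrg1+ Tregs and 410, 1073 and 662 CPM in Klrg1- Tregs, with *Adgre1* at 0 in both groups. None of the 3 members tested passed. Under the strict gate, which removes every cell with a UMI of *Lyz2* or *C1qa*, *Ccr1* (log2 fold 1.40, adjusted p = 0.0013), *Ccl4* (1.24, adjusted p = 5.4e-06) and *Ccl3* (1.25, adjusted p = 0.00018) were still higher in Klrg1+ Tregs. So was 1 of the 3 myeloid markers tested there, *Cst3* (1.15, adjusted p = 0.046, against 1.39 and 0.052 before), and the part of myeloid transcripts in these results was not tested. After thinning with groups called anew *Ccl3* did not pass (0.68, adjusted p = 0.21), nor did *Ccl4* with 2 *Foxp3* UMIs (0.76, adjusted p = 0.077).

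**Figure D3:**
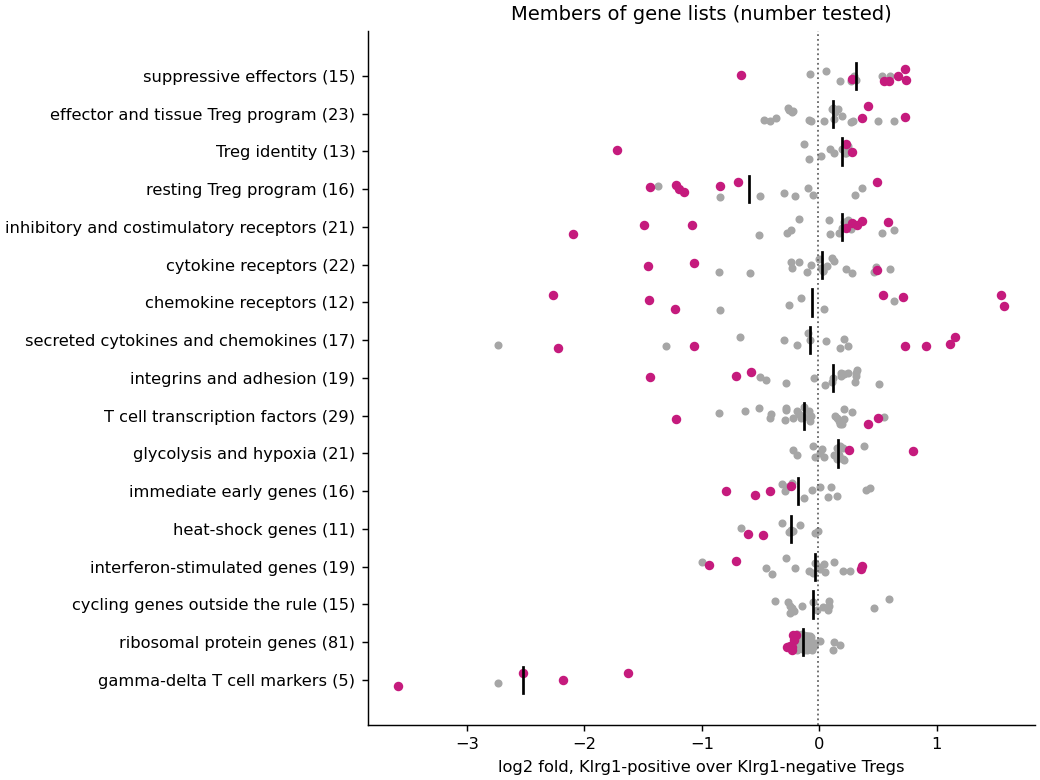
Log2 fold of Klrg1+ over Klrg1- Tregs (x axis) for every tested member of 17 gene lists (y axis, number tested in parentheses). Members past an adjusted p of 0.05 are in magenta and the others in grey, black ticks mark list medians and the dotted line the median of all genes. Suppressive effectors have a median of 0.31 and the resting Treg program one of -0.60, and the γδ T cell markers lie at the far left.

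Metallothioneins, small proteins that bind zinc and copper and are induced by metals, glucocorticoids and oxidative stress, were higher in Klrg1+ Tregs for all 3 genes tested. *Mt1* was at 457, 533 and 664 CPM in Klrg1+ Tregs and 153, 202 and 427 CPM in Klrg1- Tregs, *Mt2* at 64.8, 90.4 and 100.5 CPM against 11.6, 27.0 and 58.3 CPM, and *Mt3* at 48.2, 41.3 and 56.0 CPM against 11.6, 18.3 and 28.8 CPM. No gene of the 3 overlapped between the groups, and of all genes tested 14.7% did not overlap. The log2 fold was 1.17 ± 0.13 for *Mt1* (SE, adjusted p = 0.00057), 1.45 ± 0.22 for *Mt2* (SE, adjusted p = 0.00317) and 1.27 ± 0.20 for *Mt3* (SE, adjusted p = 0.0035). After thinning with groups called anew, the log2 fold was 0.72 for *Mt1* (adjusted p = 0.00257), and *Mt2* (0.68, adjusted p = 0.154) and *Mt3* (1.07, adjusted p = 0.0592) did not pass, nor did those with 2 *Foxp3* UMIs (adjusted p = 0.0945 and 0.0831). The 3 genes are neighbors on chromosome 8, with *Mt3* at chr8:94152607-94154146, *Mt2* at chr8:94172664-94173568 and *Mt1* at chr8:94179082-94180327.

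Because these neighbors moved together, the 250 bases before their RefSeq start sites are shown, all on the plus strand of GRCm38.p6, with matches to the core of the metal response element (TGCACNC or TGCGCNC on either strand) in capitals. The windows are chr8:94152357-94152606 for *Mt3*, chr8:94172368-94172617 for *Mt2* and chr8:94178839-94179088 for *Mt1*.
Mt3: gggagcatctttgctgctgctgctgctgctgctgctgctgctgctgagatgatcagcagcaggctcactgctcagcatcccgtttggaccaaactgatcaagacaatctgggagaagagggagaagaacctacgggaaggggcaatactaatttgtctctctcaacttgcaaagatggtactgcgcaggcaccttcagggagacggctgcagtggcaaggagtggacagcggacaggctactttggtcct
Mt2: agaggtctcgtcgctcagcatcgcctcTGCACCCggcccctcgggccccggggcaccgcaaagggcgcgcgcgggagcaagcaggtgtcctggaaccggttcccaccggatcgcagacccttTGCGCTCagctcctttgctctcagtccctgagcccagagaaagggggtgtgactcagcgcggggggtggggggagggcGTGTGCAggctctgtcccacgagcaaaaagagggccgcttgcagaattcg
Mt1: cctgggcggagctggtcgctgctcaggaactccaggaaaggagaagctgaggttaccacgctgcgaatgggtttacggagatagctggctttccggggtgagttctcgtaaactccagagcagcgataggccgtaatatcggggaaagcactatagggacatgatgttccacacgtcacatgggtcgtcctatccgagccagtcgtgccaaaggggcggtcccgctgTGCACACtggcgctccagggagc
In these windows *Mt2* held 3 matches, *Mt1* held 1 and *Mt3* none. The windows of *Mt2* and *Mt1* do not end at the GENCODE starts given above, 94172664 and 94179082. Windows at other start sites of these genes are not shown and may hold other counts. Of 32851 RefSeq promoter windows of the same length, 21.4% held at least 1 match and 5.17% held 2 or more, and a match is a description of letters only.

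Of 21 genes of glycolysis and hypoxia tested, 2 were higher and none was lower, with a median log2 fold of 0.16. Among all genes tested, 1.49% were higher. *Bnip3*, a hypoxia-induced gene of mitochondrial turnover, was at 106, 67.6 and 95.6 CPM in Klrg1+ Tregs and 58.8, 34.5 and 62.7 CPM in Klrg1- Tregs. It did not overlap, and the log2 fold was 0.80 ± 0.13 (SE, adjusted p = 0.00643). After thinning with groups called anew *Bnip3* was at 0.32 (adjusted p = 0.643), and with 2 *Foxp3* UMIs it did not pass either (adjusted p = 0.10). *Gapdh*, a glycolytic enzyme, had a log2 fold of 0.26 (adjusted p = 0.0421) and did not pass under the strict gate. The 250 bases before the start site of *Bnip3* (RefSeq, chr7:138909507-138909756, minus strand, GRCm38.p6) are shown for the hypoxia response core, ACGTG or GCGTG on either strand, in capitals.
Bnip3: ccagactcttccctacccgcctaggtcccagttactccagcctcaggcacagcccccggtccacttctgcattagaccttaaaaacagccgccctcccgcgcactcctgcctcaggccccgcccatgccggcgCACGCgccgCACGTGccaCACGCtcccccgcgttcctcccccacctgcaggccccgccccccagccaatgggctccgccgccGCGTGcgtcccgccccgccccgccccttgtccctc
This window held 5 matches, 2 of which overlap on opposite strands. Of all windows, 38.6% held at least 1 and 2.58% held 4 or more. For *Hilpda*, a hypoxia-induced gene described below, windows at different start sites held 0 and 3 matches.

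Other genes among the largest increases were *Jcad*, an endothelial junction-associated gene, at 15.1, 37.0 and 27.4 CPM against 5.35, 7.01 and 13.7 CPM, and *Basp1*, a membrane-associated signaling protein, at 44.5, 27.1 and 59.7 CPM against 4.45, 18.9 and 15.8 CPM. Neither overlapped between the groups (14.7% of all genes tested did not), with log2 folds of 1.65 (adjusted p = 0.00725) and 1.58 (adjusted p = 0.0154). *Upp1*, uridine phosphorylase, had a log2 fold of 1.28 (adjusted p = 0.0257), and *Tmem163*, a zinc transporter, 1.06 (adjusted p = 0.00617). *Nkg7*, a granule membrane protein of cytotoxic lymphocytes, was at 883, 1262 and 1316 CPM against 374, 822 and 1052 CPM (log2 fold 0.70, adjusted p = 0.00643). With *Gzmb*, it was higher among 15 granule and killer genes tested, of which *Ctsw*, a lysosomal protease of the same cells, was lower (log2 fold -0.47, adjusted p = 0.0356).

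Of 21 inhibitory and costimulatory receptors tested, 5 were higher and 3 lower, with a median log2 fold of 0.19. With 2 *Foxp3* UMIs none of 20 passed, and after thinning with groups called anew *Icos* was the 1 called of 19. Besides *Icos*, *Ctla4* and *Tnfrsf4*, those higher were the tetraspanin *Cd81* (log2 fold 0.59, adjusted p = 0.0118) and *Cd28*, the main costimulatory receptor (0.32, adjusted p = 0.0474). The lower ones, *Cd96* (log2 fold -1.50, adjusted p = 0.00734), *Cd226* (-1.08, adjusted p = 0.0157) and *Cd160* (-2.10, adjusted p = 0.00583), are receptors shared with NK cells. *Cd96* did not pass under the strict gate (adjusted p = 0.066), and *Cd160* had too few UMIs there to be tested. Of 22 cytokine receptors tested, *Il7r* was higher, and *Il6ra* (log2 fold -1.45, adjusted p = 0.0142) and *Il18r1* (-1.07, adjusted p = 0.012) were lower. Of 29 T cell transcription factors, *Maf* and *Irf8* (log2 fold 0.50, adjusted p = 0.0157) were higher and *Id3* lower.

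Transcripts of γδ T cells were more abundant in Klrg1- Tregs. *Trdc*, the constant region of the δ chain, was at 15.1, 22.8 and 13.5 CPM in Klrg1+ Tregs and 89.1, 69.5 and 82.1 CPM in Klrg1- Tregs (log2 fold -2.18, adjusted p = 8.81e-05). Of 5 γδ T cell markers tested, 4 were lower in Klrg1+ Tregs, and the 7 genes of the list summed to 22.5 to 47.8 CPM against 140 to 268 CPM, with *Il23r* at 0 in Klrg1+ Tregs. *Cd163l1*, a scavenger receptor of γδ T cells, had 12 UMIs in Klrg1+ Tregs and 87 in Klrg1- Tregs (ratio 0.0988, exact 95% interval 0.0492 to 0.181). Its UMIs in Klrg1+ Tregs were 1, 11 and 0 in the libraries, and 1 cell held 54.55% of those of Kaede-green 2. *Cd163l1* was too low to be tested under the strict gate, which leaves out cells with a *Trdc* UMI. *Serpinb1a*, a protease inhibitor, was lower in the full comparison (log2 fold -2.32, adjusted p = 0.000857) and under the strict gate (-2.34, adjusted p = 0.0033). *Tmem176b* and *Tmem176a*, ion channel genes of myeloid and IL-17-producing cells, were lower (log2 fold -1.74, adjusted p = 0.00188, and -1.38, adjusted p = 0.00734) and did not pass under the strict gate (adjusted p = 0.35 and 0.6). *Evl*, an actin regulator, was lower in both (log2 fold -1.67, adjusted p = 0.00185, and -1.92, adjusted p = 0.0037). *Pdlim1*, a cytoskeletal adaptor, was lower in the full comparison (log2 fold -1.47, adjusted p = 0.0155).

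Other foreign markers did not separate the groups in the same way in the full comparison. NK cell markers summed over 10 genes to 326 to 449 CPM in Klrg1+ Tregs and 381 to 944 CPM in Klrg1- Tregs, with *Xcl1* as the member called. After thinning with groups called anew, 3 of 5 NK cell markers tested were lower and none higher, with a median log2 fold of -0.84. With 2 *Foxp3* UMIs none of 9 passed, with a median of 0.06. The part of NK cell transcripts in the lower genes was not tested. The CD8 marker *Cd8a* was at 3.77 to 17.2 CPM and 2.67 to 41.0 CPM, and 6 B cell markers at 186 to 216 CPM and 202 to 437 CPM, with *Ms4a1* at 0 in Klrg1+ Tregs. The strict gate left 82 genes higher and 77 lower (1.11% and 1.04%), of which 132 had been called in the same direction before. Among them, *Gzmb* (log2 fold 0.76, adjusted p = 5.2e-05), *Mt1* (1.25, adjusted p = 5.2e-05), *Emb* (-1.56, adjusted p = 3.2e-07), *S1pr1* (-1.58, adjusted p = 5.2e-05) and *Cxcr4* (-1.25, adjusted p = 1.1e-05) had folds close to those of the full comparison. *Irf8*, *Csf1*, *Ctsw*, *Cd28* and *Tnip3* did not pass under the strict gate (adjusted p = 0.10, 0.093, 0.32, 0.20 and 0.61), and *Pdlim1* was too low to be tested there.

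With the amount of *Klrg1*, several levels went stepwise. From cells with 0 UMIs through 1 UMI to 2 or more, *Mt1* went from 153 through 313 to 516 CPM in the first Kaede-green library, from 202 through 333 to 568 CPM in the second, and from 427 through 653 to 669 CPM among Kaede-red cells. *Cxcr4* went down over the same steps, from 269 through 177 to 79.0 CPM, from 184 through 123 to 91.7 CPM and from 143 through 86.8 to 36.8 CPM. *Gzmb* rose over both steps in the Kaede-green libraries, from 2000 through 3479 to 4292 CPM and from 2048 through 3003 to 3651 CPM, but in Kaede-red it was 3555, 3236 and 5295 CPM. *Il10* rose over both steps in the second Kaede-green library, from 87.3 through 106 to 125 CPM, and not in the other libraries. *Ccl4* was highest at 1 UMI in all 3 libraries, at 1065, 807 and 1289 CPM against 386, 745 and 763 CPM at 2 or more. In Kaede-green 1 these were 415 and 362 UMIs of *Ccl4*, and 1 cell held 44.4% of those of Klrg1+ Tregs. The order in that library can thus rest on 1 cell. *Areg* was highest at 1 UMI in both Kaede-green libraries, at 811 and 1151 CPM against 758 and 704 CPM at 2 or more. *S1pr1* went from 131 through 23.1 to 38.4 CPM in Kaede-green 1 and fell over both steps in Kaede-green 2. These levels include the cells that defined the groups and carry no test. When only cells with 2 or more *Klrg1* UMIs were called positive, 182 genes were higher and 184 lower (2.21% and 2.24%).

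**Figure D4:**
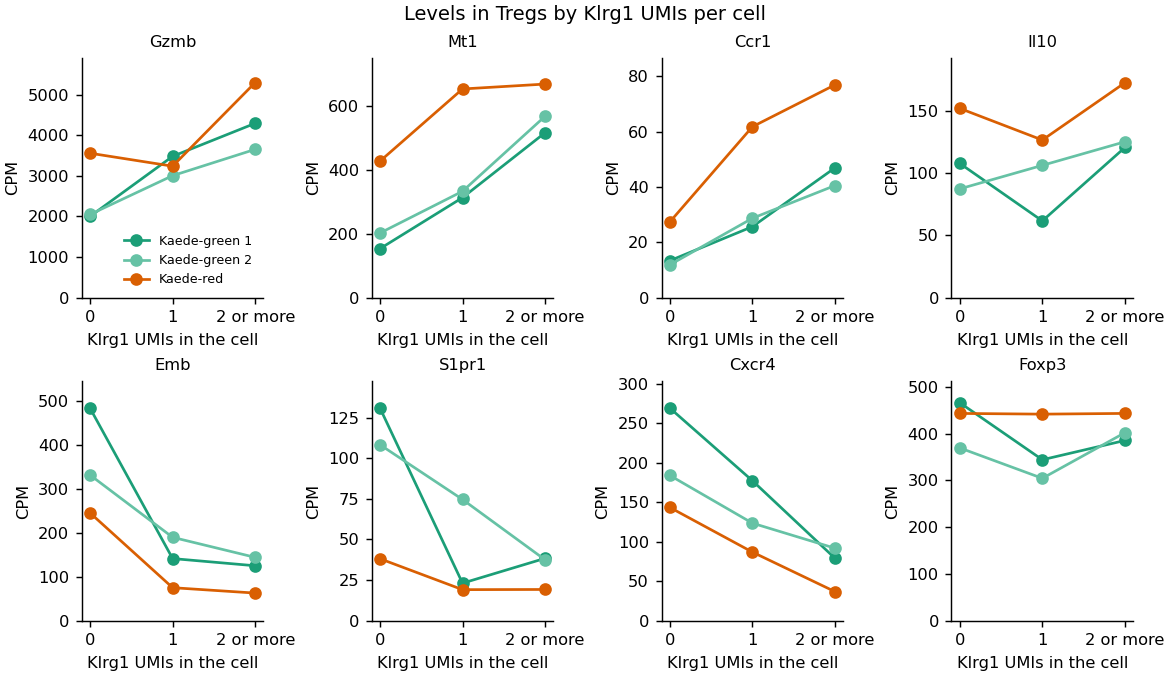
CPM (y axis, from 0) of 8 genes in Tregs with 0, 1, or 2 or more *Klrg1* UMIs per cell (x axis), with 1 line for each library. *Mt1* and *Ccr1* go up and *Cxcr4* goes down over both steps in all 3 libraries, while *Foxp3* keeps no common order.

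Among the genes called, differences between Klrg1+ and Klrg1- Tregs were mostly smaller in Kaede-red than in the Kaede-green libraries. Of the 244 genes called, 150 had a log2 ratio smaller in size in Kaede-red than in both Kaede-green libraries and 29 a larger one, which with 1 Kaede-red library is a description only. The 244 were called on the counts behind these ratios. The same count was not made over all genes tested, so these numbers have no background share beside them. The log2 ratio of *Gzmb* was 1.02 and 0.80 in the Kaede-green libraries and 0.41 in Kaede-red, that of *Ccl4* 1.84, 1.25 and 0.42, and that of *Mt1* 1.57, 1.40 and 0.64. For these genes Klrg1- Tregs of Kaede-red were at higher levels than those of the Kaede-green libraries. *Emb* (-1.89, -1.13 and -1.88) and *Cxcr4* (-1.32, -0.93 and -1.50) did not follow this order.

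To ask which differences depended on the cells being Tregs, the same division was made in CD8 T cells (at least 1 *Cd8b1* UMI, none of *Foxp3*) and the difference of the differences was tested. It passed for 27 genes in which Tregs had the higher fold (0.303% of 8924) and 55 in which they had the lower one (0.616%), or 14 and 82 when scaled by library totals alone. Klrg1+ CD8 T cells numbered 82, 171 and 99. *S1pr1* was lower in Klrg1+ Tregs and not in Klrg1+ CD8 T cells, which held 108, 132 and 18.1 CPM against 104, 90.0 and 16.9 CPM in Klrg1- CD8 T cells. The folds differed by -1.66 ± 0.23 on the log2 scale (SE, adjusted p = 0.00247). *Il7r* was higher in Klrg1+ Tregs but lower in Klrg1+ CD8 T cells (log2 fold -0.35, adjusted p = 0.016), a difference of 0.85 ± 0.13 (SE, adjusted p = 0.00424). *Hilpda*, a hypoxia-induced gene of lipid droplets, was at 424, 391 and 448 CPM in Klrg1+ Tregs against 191, 265 and 317 CPM in Klrg1- Tregs, and its log2 fold of 0.72 exceeded that in CD8 T cells by 0.83 ± 0.15 (SE, adjusted p = 0.00947). *Cst7*, a protease inhibitor of granules, *Anxa2*, a membrane-binding protein, and *Tmem163* were likewise higher in Klrg1+ Tregs, with folds larger by 0.86, 0.87 and 1.28 on the log2 scale (adjusted p = 0.0065, 0.032 and 0.0123). So were *Ccl3* (by 1.41, adjusted p = 0.0411), *Ccl9* and *Tnip3*, an inhibitor of NF-κB signaling (by 2.68, adjusted p = 0.0159). After thinning with groups called anew, the differences of *S1pr1*, *Il7r*, *Hilpda* and *Cst7* still passed. Those of *Anxa2*, *Tmem163*, *Ccl3* and *Ccl9* did not (adjusted p = 0.0565, 0.395, 0.226 and 0.104), and *Tnip3* was not tested there.

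*Gzma*, the granule protease granzyme A, went with *Klrg1* in CD8 T cells alone of the 2 cell types, at 2352, 4062 and 1057 CPM in Klrg1+ against 691, 818 and 256 CPM in Klrg1- CD8 T cells (log2 fold 1.97 ± 0.08, SE, adjusted p = 8.3e-13). In Tregs its log2 fold was -0.10, a difference of -2.08 ± 0.17 (SE, adjusted p = 1.58e-05). *Gzmb* was higher in Klrg1+ cells of both types, by 0.74 and 0.88, and the difference of -0.13 ± 0.12 did not pass (SE, adjusted p = 0.797). *Il10*, *Itgb8*, *Lrrc32*, *Ebi3*, *Izumo1r* and *Trat1*, a T cell receptor adaptor, also had lower folds in Tregs, by 1.97 to 3.34 on the log2 scale in size. Several of these are Treg genes, and in CD8 T cells they lay far below their level in Tregs. After thinning with groups called anew, the difference still passed for *Il10* (adjusted p = 0.00611). It did not for *Itgb8*, *Lrrc32*, *Ebi3*, *Izumo1r* and *Trat1* (adjusted p = 0.587, 0.41, 0.124, 0.499 and 0.104). *Il10* averaged 28.1 CPM in Klrg1+ CD8 T cells and 2.41 CPM in Klrg1- CD8 T cells, against 128 and 116 CPM in Tregs. The 14 genes of Treg identity summed to 3152, 2642 and 4319 CPM in Klrg1+ CD8 T cells and 2202, 2492 and 3532 CPM in Klrg1- ones, and the part of Treg transcripts in these differences was not tested.

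**Figure D5:**
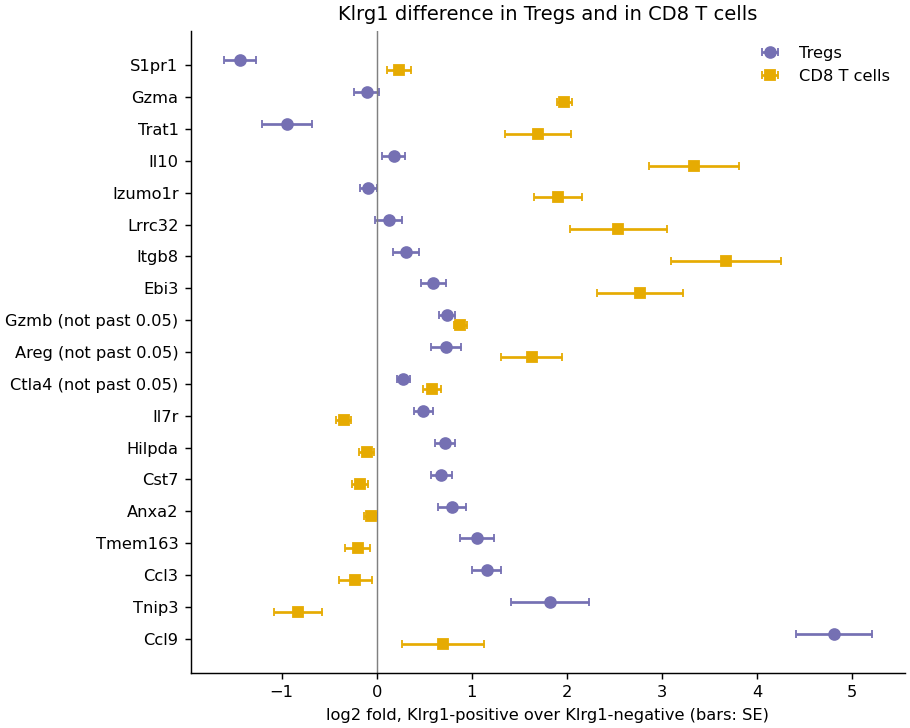
Log2 fold of Klrg1+ over Klrg1- cells (x axis) for 19 genes (y axis) in Tregs (circles) and CD8 T cells (squares), with standard errors as bars. *S1pr1* is at -1.44 in Tregs and above 0 in CD8 T cells, *Gzma* is near 0 in Tregs and at 1.97 in CD8 T cells, and *Gzmb* lies close to the same value in both.

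Against Foxp3-negative CD4 T cells, 33 genes had a higher fold in Tregs (0.389% of 8487) and 69 a lower one (0.813%), or 20 and 87 when scaled by library totals alone. The Klrg1+ cells of this comparison numbered 27, 44 and 46 and carried many Treg transcripts. *Ikzf2* was at 1050, 1265 and 1758 CPM in Klrg1+ and 198, 286 and 482 CPM in Klrg1- Foxp3-negative CD4 T cells, a log2 fold of 2.08, against 0.21 in Tregs (difference -1.84 ± 0.12, SE, adjusted p = 8.39e-08). *Il2ra* (difference -1.75, adjusted p = 3.17e-05), *Itgae* (-2.21, adjusted p = 0.000616), *Lrrc32* (-2.49, adjusted p = 0.00468), *Il10* (-2.26, adjusted p = 0.00097) and *Areg* (-1.93, adjusted p = 0.0473) behaved alike. The genes of Treg identity summed to 7120, 7926 and 10165 CPM in these Klrg1+ cells, against 3202, 3269 and 5235 CPM in the Klrg1- ones and 10723 to 12392 CPM in Klrg1+ Tregs. How far cells with unread *Foxp3* enter these differences was not tested. In the other direction, *Tnfsf11*, which encodes RANKL, averaged 11.3 CPM in Klrg1+ and 188 CPM in Klrg1- Foxp3-negative CD4 T cells (difference 3.08, adjusted p = 0.00567), and *Themis*, a T cell receptor signaling gene, 14.5 and 70.0 CPM (difference 2.53, adjusted p = 0.0103). In Tregs these were at 10.3 and 19.5 CPM and at 18.6 and 14.6 CPM. After thinning with groups called anew, the difference of *Themis* did not pass (adjusted p = 0.204). *Gzmb* had a larger fold in Foxp3-negative CD4 T cells, 1.98 against 0.74 (difference -1.22, adjusted p = 0.000371).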

How the data were processed

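Single-cell 3' RNA-seq had been made from 3 libraries. The deposited files hold raw UMI counts for each gene in each barcode, made by the authors with Cell Ranger (version 6.1.2 in the submitters' processing notes, 6.0.1 in the file headers) on mm10. The members, gene lists and tests were chosen with earlier results of these data known. Counts were read as deposited, and cells were filtered and grouped as described above. The libraries are separate samples by their labels, but no label says which animals they came from. With the library as a block, p-values set the difference within libraries against a spread that edgeR estimated with information shared between genes. P-values and SE are thus not the spread of the log2 ratios of 1 gene over the 3 libraries. For *Gzmb* these ratios were 1.02, 0.80 and 0.41, at an SE of 0.08. The p-values also do not measure the spread of levels between libraries or between animals. The libraries shared 20 to 36 cell barcodes, none of them of a Treg. No doublet caller was run, and the strict gate and leaving out the 5% of cells with the most UMIs stand in its place.

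UMIs of the cells of a library and group were summed, since cells are not replicates, and both sums of a library were paired by construction. Sums were tested with edgeR 4.0.16 (quasi-likelihood test, TMM factors, its filter on low counts, library as block, Benjamini-Hochberg adjustment, threshold 0.05) in R 4.3.3, and with DESeq2 1.42.0 as an alternative. Differences between cell types were tested as interactions with 12 sums. SE is that of the fitted log2 fold, obtained from the fold and its test statistic. CPM are relative to the sum of UMIs, so CPM alone cannot tell fewer cells with a transcript from less of it per cell. For some genes, cells with a UMI were counted after thinning, with the groups kept. *Emb* was read in 23.1%, 26.9% and 12.3% of Klrg1+ Tregs and 53.7%, 49.5% and 27.2% of Klrg1- Tregs. *Gzmb* was read in 88.5%, 94.6% and 92.1% against 62.5%, 72.9% and 89.0%. These shares and the level per cell with a UMI were not tested. Named genes were 14 chosen Treg genes, the 12 largest called changes each way with 1 direction in all libraries and at least 20 CPM in 1 group, up to 4 called members each way of 28 gene lists, and the 8 largest differences each way between cell types. Genes with Gm or Rik names and receptor segments (14 of the calls) were counted, not named, and a few other genes of the rule are not reported here. Coordinates are from GENCODE M21 (GRCm38), which holds 99.6% of the 32285 genes by identifier. Promoter sequences are from RefSeq (GRCm38.p6).

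In simulated sums of 8287 genes for the Treg comparison, 41.5%, 81.2% and 100% of genes changed by 1.5, 2 and 4 fold were called, and 1.38% of calls were false. In that with CD8 T cells (8931 genes) the shares were 17.9%, 48.5% and 85.9%, with 5.71% of calls false, and in that with Foxp3-negative CD4 T cells (8568 genes) 8.96%, 27.3% and 70.8%, with 1.41% false. Simulated sums were drawn with the same dispersion for every gene and without single cells that dominate a sum. The false shares are therefore not error rates of the calls reported here.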

Additional observations from a re-analysis of the deposited data

Results flagged for a closer look

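For a small share of genes, the Klrg1 difference was not the same in Tregs as in other T cells, by a test of the difference itself. In 27 genes Tregs had a higher fold than CD8 T cells and in 55 a lower one (0.303% and 0.616% of 8924). Against Foxp3-negative CD4 T cells these were 33 and 69 genes (0.389% and 0.813% of 8487). *Ccl9* (4.81 in Tregs, 0.70 in CD8 T cells, adjusted p of the difference 0.0187) rested on few cells, as given above. Klrg1+ cells of both comparison groups carried more transcripts of Treg identity than Klrg1- cells, and their part in these counts was not tested.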

How the results depend on the processing

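Calls of the Treg comparison depended on depth and on how strictly Tregs were chosen. The number of genes tested also differed between settings. Against 123 genes higher and 121 lower of 8245, DESeq2 called 44 and 30 of 2810 with an adjusted p. No filter on low counts gave 270 and 277 of 15927. Thinning gave 71 and 59 of 5760 with groups as before and 39 and 37 of 5846 with groups called again. With 2 *Foxp3* UMIs there were 13 and 13 of 7702. Genes lower numbered 77 of 7414 under the strict gate and 184 of 8225 with 2 *Klrg1* UMIs. Settings chosen after seeing the data gave 71 and 62 of 7270 with a *Cd4* UMI required. With *Foxp3*, strict gate and thinning together they gave 19 and 19 of 4453. Both sums come from 1 library, so the replicate block is part of the design, and without the block or pairing 1 gene was higher and 3 lower. Leaving out 1 library at a time gave 102 to 158 genes higher and 76 to 207 lower, with 207 lower without Kaede-green 1 and 76 without Kaede-green 2. Of 78 named genes with a call, 25 lost it without the second Kaede-green library, 9 without either of the others, and 75 without the block. With 2 *Foxp3* UMIs 60 lost it and 12 kept it, and the rest were not tested there. After thinning with groups called again 36 lost it, 1 turned and 29 kept it, and the rest were not tested there. Of all 244 calls, 25 and 58 passed in the same direction under these settings. The difference from CD8 T cells, 82 of 8924 genes, became 304 of 20005 with no filter and 69 of 5983 by DESeq2 with the block. It became 0 by edgeR without the block (409 at an unadjusted p under 0.05) and 43 of 6412 after thinning. With cycling cells kept it was 48, and without Kaede-red 49 (range over libraries left out 49 to 66). That from Foxp3-negative CD4 T cells, 102 of 8487 genes, became 280 of 16848 with no filter. It was 3 without the block and 62 of 6070 after thinning. With a library left out it was 29 to 75, 29 without Kaede-green 1 and 53 without Kaede-red.

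The Klrg1+ share became 34.2%, 39.8% and 45.0% after thinning and 34.0%, 43.9% and 42.4% with 2 *Klrg1* UMIs, where Kaede-red was no longer highest. Among the named genes, directions turned in some that had not passed, and in *Ctla4*, *Cd96*, *Irf8* and *Gapdh*. Of all calls tested again, 187 of 196 kept their direction with all 3 restrictions together, and 230 of 231 with 2 *Foxp3* UMIs. With all 3 restrictions 7 named genes turned, not all of which are listed here. Turned log2 folds were after thinning with groups as before -0.0058 for *Il10*, -0.12 for *Il1rl1*, with 2 *Foxp3* UMIs -0.11 for *Il1rl1*, -0.020 for *Prdm1*, -0.015 for *Ccr8*, -0.037 for *Itgae*, with all 3 restrictions together -0.16 for *Prdm1*, -0.23 for *Itgae*, -0.0086 for *Il2ra*, -0.013 for *Ctla4*, -0.043 for *Irf8*, -0.078 for *Gapdh*, under the strict gate -0.034 for *Ccr8*, after thinning with groups called again -0.071 for *Itgae*, 0.095 for *Cd96*. With 1 library left out, log2 folds that turned ran from -0.087 (without Kaede-red) to 0.45 (without Kaede-green 1) for *Il1rl1*, from -0.20 (without Kaede-red) to 0.027 (without Kaede-green 1) for *Gata3*, from -0.069 (without Kaede-green 2) to 0.28 (without Kaede-red) for *Prdm1*, from -0.17 (without Kaede-red) to 0.16 (without Kaede-green 2) for *Ccr8*, from -0.043 (without Kaede-green 2) to 0.20 (without Kaede-red) for *Itgae*. *Gzmb* stayed between 0.60 and 0.90, *Emb* between -1.89 and -0.93, *Cxcr4* between -1.50 and -1.07, and *S1pr1* between -1.60 and -1.18, losing the call without the block alone. The smallest sum held 1122539 UMIs, so genes at a few CPM rested on few UMIs. The cause of these changes was not tested.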

Other observations

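Some members of general programs were lower in Klrg1+ Tregs. Of 16 immediate early genes tested, 4 were lower and none higher, with a median log2 fold of -0.18. They were *Klf4* (-0.79, adjusted p = 0.0347), *Btg2* (-0.55, adjusted p = 0.0068), *Ier5* (-0.42, adjusted p = 0.0415) and *Junb*, a subunit of AP-1 (-0.24, adjusted p = 0.04). Heat-shock genes gave 2 lower of 11, the mitochondrial chaperone pair *Hspd1* (-0.61, adjusted p = 0.0068) and *Hspe1* (-0.48, adjusted p = 0.0137). Of 81 ribosomal protein genes, 7 were lower and none higher (median -0.14), among them *Rps27a* (-0.27, adjusted p = 0.00922), *Rps27* (-0.25, adjusted p = 0.0223) and *Rpl12* (-0.24, adjusted p = 0.0285). Of 13 mitochondrial genes 2 were lower, *mt-Nd2* (-0.34, adjusted p = 0.00758) and *mt-Atp6* (-0.21, adjusted p = 0.0236), while the mitochondrial share of UMIs, used to choose cells, had medians of 2.15%, 1.97% and 1.69% in Klrg1+ Tregs and 2.71%, 2.27% and 1.84% in Klrg1- Tregs. Under the strict gate *Junb*, *Klf4*, *Rpl12* and both mitochondrial genes did not pass.

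Interferon-stimulated genes went in both directions, with 2 of 19 tested higher, 2 lower and a median of -0.03. *Ifit3*, an interferon-induced antiviral gene, was at 108, 149 and 159 CPM in Klrg1+ Tregs and 313, 272 and 224 CPM in Klrg1- Tregs (log2 fold -0.93, adjusted p = 0.00362), and its neighbor *Ifit2* had a log2 fold of -0.70 (adjusted p = 0.0257). *Ifi27l2a* (0.35, adjusted p = 0.00115) and *Isg20* (0.37, adjusted p = 0.0258) were higher. No gene passed edgeR's test among 15 cycling genes outside the rule (median -0.06) or 14 genes of lipid uptake and metabolism (median 0.01), and of 12 genes of the BCL2 family *Bcl2* was the one that did. Among NK receptors of T cells, *Cd160* was the one of 6 tested that was lower, and none of 2 T cell receptor variable genes passed. Mast cell markers summed over 5 genes to 3.88 to 9.05 CPM in Klrg1+ Tregs and 6.48 to 8.91 CPM in Klrg1- Tregs, with *Cpa3* and *Mcpt4* at 0 in the latter.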
